A study of Mus musculus with 4 samples.

Results

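The peaks described here are the stretches of RNA, labelled as messenger RNA 3′ untranslated regions (3′ UTRs), that were recovered with mutant Trim71 in mouse embryonic stem cells. They were chosen by the location label of the authors' deposited peak table, which had to read 3′ UTR alone. The label was carried by 300 of 793 peaks, in 255 of 544 genes. Trim71 was a FLAG-tagged form with the amino acid change R783H, and HITS-CLIP crosslinks such a protein to RNA in living cells before the bound fragments are purified and sequenced. The stem cells were of the ES-E14TG2a background and were grown in 2i medium with Lif, a mixture of kinase inhibitors and a cytokine that keeps them undifferentiated. There were 2 CLIP libraries, made with an antibody against FLAG, and 2 input libraries of RNA from the same kind of cells. Both groups carried FLAG-Trim71 (R783H), so no values of the wild-type protein, of untagged cells or of cells without Trim71 were compared.

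Trim71 belongs to the TRIM-NHL family, whose members bind RNA through a propeller-shaped NHL domain and carry a RING domain typical of ubiquitin ligases. It is present in early embryos and stem cells and is known for holding down the expression of messenger RNAs it binds. The 3′ UTR follows the stop codon, is not translated, and is where many RNA-binding proteins and microRNAs act on the stability and translation of a message.

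Each peak had 1 RPM value, its CLIP reads scaled to a total of 1000000 and not divided by width, and 1 fold change of CLIP over input, which is the authors' own value and was read here as log2. Density below means this RPM of a whole peak, not reads per base. No library had values of its own, so no value below has a replicate error. The RPM values corresponded to whole reads at a total of 11000000 CLIP reads, and the fold changes to whole input reads at a total of 82160000. These recovered reads gave each fold change a 95% interval by the Clopper-Pearson method on the share of CLIP among the peak's reads, which covers counting error only. Of the 10 marker genes of pluripotent stem cells that were looked up, 3 had a peak of any location (Sox2, Zfp42 and Dppa5a). Of markers of neural progenitors (4 genes), mesoderm and endoderm (5 genes) and fibroblast feeder cells (4 genes), 0 had one. A gene missing from a peak list may still be expressed.

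Genome sequence was not used here, and the reference windows analysed covered the bases of 1 peak. It is shown because its log2 fold change of 6.71 was the fourth highest of the 3′ UTR peaks, and to show how short such a stretch can be. This peak of 8 bases was assigned to Lamb2, which encodes a laminin subunit of basement membranes. RefSeq (GRCm38.p6) gives the plus strand of chr9:108490447-108490476 as follows, with the peak in capitals.
Lamb2: ccaagcactgtTCTGCACAcgatcgtccgc
Of these 30 bases, 18 were G or C. The peak ended 211 bases upstream of the annotated start of the next gene, Usp19. It held 70 CLIP reads (6.36 RPM) and 5 recovered input reads, and its interval was 5.42 to 8.38.

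The 3′ UTR peaks were short, and most held few reads. Their width ranged from 3 to 114 bases with a median of 34 (interquartile range 21 to 52.3), against a median of 26 bases in the 209 coding-sequence peaks. The widest lay in Hnrnpa2b1 and Sub1 (114 bases each), Celf1 (108), H1f0 (96) and Hif1a (93). The narrowest lay in Hspa8 (3 bases), Basp1, H2afx and Yars (6 each) and Alkbh5 (7, equal with 1 of the Hic2 peaks). The median peak held 82 CLIP reads (34 to 5497) over 42 recovered input reads (5 to 1762). In RPM the middle of the distribution was narrow, with an interquartile range of 5.52 to 11.1. Wider peaks tended to have more RPM and less enrichment, with Spearman rho of 0.33 and -0.21 across the 300 peaks. CLIP and input reads had a rho of 0.70. These are descriptions across peaks that share the same libraries.

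**Figure D1:**
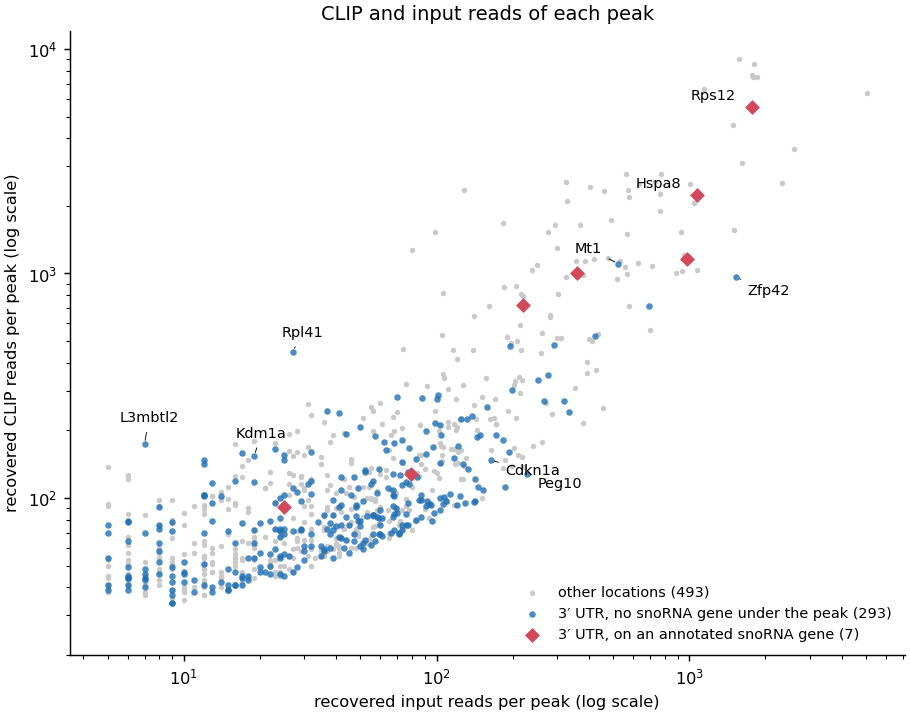
Recovered CLIP reads against recovered input reads of each peak, both on log scales, for 293 peaks in 3′ UTRs off annotated snoRNA genes (blue), 7 on them (red diamonds) and 493 peaks of other locations (grey). The 3′ UTR peaks with the most reads were diamonds, led by Rps12 with 5497 CLIP reads, whereas L3mbtl2 and Rpl41 combined many CLIP reads with 7 and 27 input reads.

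The highest RPM values under the 3′ UTR label lay on small nucleolar RNA (snoRNA) genes. A snoRNA is a short noncoding RNA that guides chemical modification of ribosomal RNA, and most are cut out of introns of host genes. By the RefSeq gene table, 7 of the 300 peaks overlapped an annotated snoRNA gene, or 2.33% (Clopper-Pearson interval 0.94 to 4.75%). The same was true of 1 of 209 coding-sequence peaks, of 34 of 121 intronic peaks and of 53 of 95 peaks in exons that the authors left unclassified. Because this was seen after the peaks had been read, the comparison is a description.

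Rps12, which encodes a protein of the small ribosomal subunit, held the peak with the highest value, 499.7 RPM. All of its 70 bases lay on the snoRNA gene LOC115487513. A second Rps12 peak of 65.5 RPM lay with all 67 bases on Snord100. Hspa8, the gene of a constitutive Hsp70 chaperone, had 3 peaks of 203.0, 105.1 and 91.0 RPM. They lay on Snord14d (41 of 41 bases), Snord14c (87 of 88 bases) and again Snord14d (3 of 3 bases). Lower densities were found in Rps3, at 11.6 RPM on Snord15b, and in Ppan, a ribosome biogenesis gene, at 8.27 RPM on LOC115487308. These 7 peaks had log2 fold changes of 3.14 to 4.77, within the range of the other 3′ UTR peaks. They were placed between 34.5 and 74.1% of the way through their genes.

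Together they held 24.9% of the 3959.7 RPM of all 3′ UTR peaks, and they were 5 of the 10 densest, which held 33.1%. The medians hardly moved without them: 7.36 against 7.46 RPM, and 4.01 in both cases for the log2 fold change. The share of the table's summed RPM that lay in 3′ UTR peaks was 17.8%. It was 31.6% when peaks on snoRNA genes were left out for every location.

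Off snoRNA genes, the densest 3′ UTR peak belonged to Mt1, which encodes a metal-binding metallothionein, with 100.6 RPM from 1107 CLIP and 523 input reads. Zfp42, the gene of the stem cell marker Rex1, followed with 87.4 RPM. Hsp90aa1, the stress-inducible Hsp90 chaperone, had 65.2 RPM in the denser of its peaks. Next were Etnk1 (ethanolamine kinase, 47.8 RPM), Hnrpdl (a splicing regulator, 43.7 RPM), Cd9 (a tetraspanin of the cell surface, 43.2 RPM) and Rpl41 (a ribosomal protein, 40.8 RPM). The other peaks among the 15 densest lay in Cnbp (32.1 RPM), Cltc (30.6 RPM) and Rtn4 (27.5 RPM). Cnbp encodes a nucleic acid binding protein, Cltc the clathrin heavy chain and Rtn4 a reticulon of the endoplasmic reticulum. Density and enrichment were different orders. Among these genes Zfp42 had one of the lowest log2 fold changes, 2.23 (interval 2.11 to 2.34; 961 CLIP and 1534 input reads), whereas Rpl41 had 6.96 (interval 6.40 to 7.57; 449 and 27 reads).

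By enrichment, the 3′ UTR peaks ranged from a log2 fold change of 2.07 to 7.54. Above 5 were 61 of the 300, or 20.3%, against 25.9% of all 793 peaks. The highest value belonged to L3mbtl2, which encodes a chromatin protein of a Polycomb-like complex, at chr15:81687481-81687497 on the plus strand. After Rpl41 came the splicing factor gene Srsf11 (6.83), Lamb2, Fubp1 (6.62), the ubiquitin ligase gene Trim25 (6.60) and the splicing factor gene Rbm25 (6.53). Ddx6, an RNA helicase of messenger RNA decay and storage, had 6.47 from 142 CLIP and 12 input reads. The others among the 15 highest were Atad2 (6.41), Mcts2 (6.33), Tgoln2 (6.32), Acap2 (6.22), Atp6ap1 (6.15), H2afx (6.12) and Cecr2 (6.09). H2afx encodes the histone variant marked at DNA breaks, with 158 CLIP and 17 input reads.

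Several of these peaks had few input reads, and their order was not resolved. Srsf11 and Lamb2 had 5 input reads each, Fubp1 and Trim25 had 6, and the intervals of all 15 peaks overlapped one another. Across the 300 peaks, 37 had fewer than 10 input reads. Input reads are the denominator of the fold change, and the Spearman rho between the 2 was -0.82 (n = 300).

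At the other end were Peg10 (2.07), Nucks1 (2.17), Zfp42 (2.23), Chchd2 (2.35), Hif1a (2.35), G3bp1 (2.40), Canx (2.44), Celf1 (2.45), Smarcc1 (2.52) and Ssr1 (2.52). Peg10 is an imprinted gene derived from a retrotransposon, Hif1a encodes the hypoxia-inducible transcription factor, and G3bp1 a stress granule protein. Their recovered input reads ranged from 121 in Ssr1 to 1534 in Zfp42. The lower bound of the interval was above 2, a 4-fold enrichment, in 296 of the 300 peaks, where 99.0% of the whole table met it. The 4 below were Peg10, Nucks1, Chchd2 and Hif1a.

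To see which functions the bound genes serve, the 255 genes were grouped by their known role after their names had been read, so the counts describe the list and carry no test. The largest groups were chromatin and transcription (52 genes, 56 peaks), RNA binding and processing (36 genes, 59 peaks) and metabolism (24 genes, 24 peaks). Signalling (22 genes), membrane traffic and transport (19), translation (14), and chaperones and the endoplasmic reticulum (14) followed. Cytoskeleton and adhesion (12 genes), cell cycle and DNA replication (11), the ubiquitin pathway (11), ribosome biogenesis (9) and nuclear transport (4) were smaller. A further 27 genes were not grouped. Median log2 fold changes of the groups lay between 3.57 in nuclear transport and 4.31 in cytoskeleton and adhesion, close to the 4.01 of all 3′ UTR peaks. In median density, chaperones and the endoplasmic reticulum stood highest with 15.1 RPM, a group that includes 3 of the peaks on snoRNA genes.

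Listed chromatin regulators with a peak mostly had it in the 3′ UTR. The list was written from textbook knowledge, but with earlier results of these data known. Of its genes, 15 had a peak of any location, and 13 of these had one in the 3′ UTR. Over the whole table, 255 of 544 genes (46.9%) had one. The share depends on which genes were listed and was not tested. The 13 peaks had a median log2 fold change of 4.06 (2.52 to 7.54), and 5 of them lay above 5. In the wider group of chromatin and transcription 14 of 56 peaks did, and of all 3′ UTR peaks 61 of 300 (20.3%). The list is short, and a difference in these shares was not tested.

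Writers and erasers of methyl marks were spread across that range. Tet1, which oxidises methylated DNA, had 116 CLIP over 13 input reads, or 6.06 (interval 5.23 to 7.01). Kdm1a, a histone H3 lysine demethylase, had 5.92 (interval 5.23 to 6.69), and its peak lay 181 bases from the annotated end of the gene. The histone demethylase genes Kdm3b and Kdm6b had 4.80 and 3.22. Jarid2, an accessory subunit of the Polycomb complex that methylates histone H3, had 3.96 from 46 CLIP and 22 input reads. Wdr5, a core subunit of complexes that methylate histone H3, had 3.46.

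Remodelling proteins also differed among themselves. Ep400, a remodelling ATPase, had 49 CLIP over 9 input reads, or 5.35. The remodelling complex subunits Smarcd1 and Smarcc1 had 3.55 and 2.52, with 42 and 146 input reads. The interval of Smarcc1, 2.15 to 2.88, did not overlap that of Ep400, 4.31 to 6.56. Ogt, which attaches N-acetylglucosamine to nuclear proteins, had 4.06, and the linker histone gene H1f0 had 4.02. Of the replication-dependent histone genes with a peak, 0 of 5 had it in the 3′ UTR, against 46.9% of all genes with a peak.

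Among listed pluripotency genes, 12 had a peak of any location and 8 of these had one in the 3′ UTR. Of all genes with a peak, 46.9% had one there, and a difference from that share was not tested. Zfp42 and Sox2, a core transcription factor of stem cells, had dense peaks (87.4 and 24.5 RPM) over many input reads (1534 and 318), with log2 fold changes of 2.23 and 2.67. Fgf4, a growth factor secreted by stem cells, was alike with 161 CLIP and 194 input reads and 2.63 (interval 2.32 to 2.94). Sall1 and Sall4, which encode zinc finger transcription factors, lay higher. Sall1 had peaks of 4.41 and 3.83, and Sall4 had 4.01. The transcription factor genes Tfcp2l1 and Mycn had 3.88 and 4.94, the latter from 37 CLIP and 9 input reads. The intervals of Zfp42, Sox2 and Fgf4 all ended below 3, and those of the other 6 peaks all began above 3. The bound of 3 was not set beforehand, so this split is a description. Across the 300 peaks, log2 fold change was lower where input reads were more (Spearman rho -0.82).

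**Figure D2:**
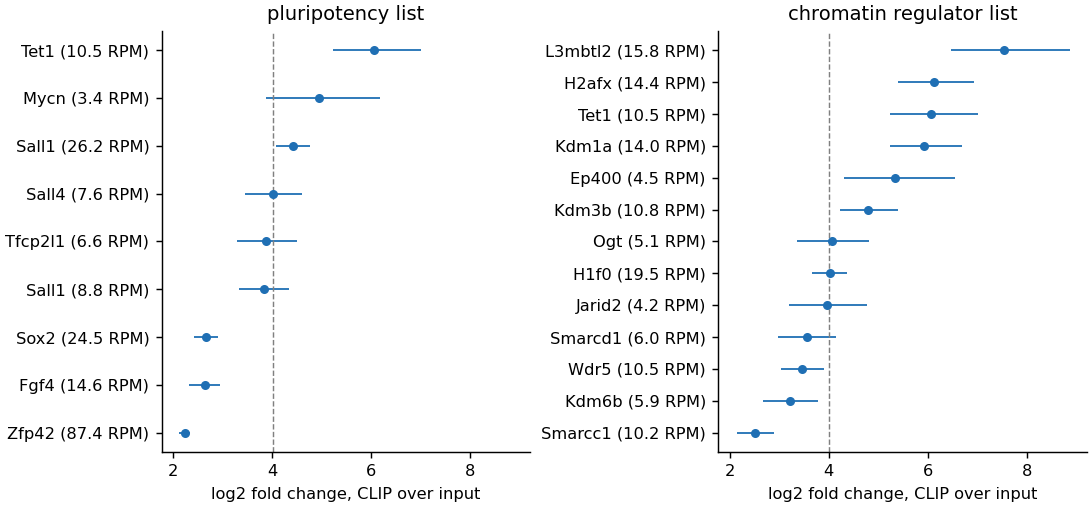
Log2 fold change of CLIP over input (points) with 95% counting intervals (bars) for 3′ UTR peaks of listed pluripotency genes (left) and chromatin regulators (right), with RPM beside each gene and the median of all 3′ UTR peaks as a dashed line at 4.01. Zfp42, Sox2 and Fgf4 lie at 2.23 to 2.67 with short bars, and L3mbtl2 lies highest at 7.54.

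Of the 10 listed cell cycle genes with a peak, 6 had it in the 3′ UTR, where 46.9% of all genes with a peak did. Their median log2 fold change was 3.72, and 0 of the 6 peaks lay above 5, where 20.3% of all 3′ UTR peaks did. The lists of membrane traffic, energy metabolism and nuclear transport, with 6 peaks each, also had 0 above 5. This count therefore did not set the cell cycle genes apart. The values were 4.79 for Bub3 (a spindle checkpoint protein), 4.38 for Tfdp1 (the partner of E2F factors) and 3.74 for Cdc16 (a subunit of the anaphase-promoting complex). They were 3.69 for Cdkn1b, the inhibitor p27, 3.49 for Cdk1, the mitotic kinase, and 2.74 for Cdkn1a, the inhibitor p21. The Cdkn1a peak lay 1191 bases and that of Cdkn1b 1060 bases from the annotated end of the gene. Their intervals did not overlap (2.41 to 3.07 and 3.31 to 4.08), at similar densities of 13.4 and 14.3 RPM.

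Messages for ribosomal proteins, the machinery of translation, were mostly bound outside the 3′ UTR: 7 of 50 such genes with a peak had one there, against 46.9% of all genes with a peak. Leaving aside the peaks on snoRNA genes, these were Rpl41, a pair in Rps24 (4.95 and 5.77), Rps4y2 (3.67), Rpl13a (3.13) and Rps25 (2.67). The gene table lists Rps4y2 under the name Rps4l as a transcribed pseudogene, and ribosomal protein genes have near-identical copies, so the origin of such reads is uncertain. Of translation initiation factors, Eif4a2, Eif4b and Eif1a had 4.0, 3.49 and 3.21. Those were 3 of the 12 translation factor genes with any peak.

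The 3′ UTRs of messages for RNA-binding proteins carried the most peaks per gene. On the list of splicing factors and RNA-binding proteins, 18 of 31 genes with a peak had it in the 3′ UTR, with 37 peaks. The share over all genes with a peak was 46.9%. In the wider group by role, 13 of 36 genes had 2 or more peaks, against 32 of all 255 and 4 of 52 in chromatin and transcription. Of the 10 listed genes of messenger RNA decay and deadenylation with a peak of any location, 4 had it in the 3′ UTR. Besides Ddx6 they were Pum2, a Pumilio repressor that itself binds 3′ UTRs (4.37, 25.1 RPM), the nuclear exonuclease gene Xrn2 (3.36) and Ythdf1, a reader of methylated adenosine (3.14). Zcchc6, which adds uridines to RNA ends, had 4.07 and was 1 of the 2 listed microRNA pathway genes with a peak of any location. Igf2bp1, whose protein binds and protects messages in stem cells, had 4.97 from 42 CLIP and 10 input reads.

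The remaining lists were counted in the same way, over their genes with a peak of any location. The share over all genes with a peak was 46.9%. These lists hold few such genes, and differences from that share were not tested. Of 14 listed chaperone and endoplasmic reticulum genes with a peak, 8 had it in the 3′ UTR. Hsp90ab1, the constitutive Hsp90, had a pair of 5.45 and 5.62, and Canx, a lectin chaperone, had 2.44 at 22.0 RPM.

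Energy metabolism had 6 of 19 genes, with Uqcrh of respiratory complex III highest at 4.57. Nuclear transport had 4 of 7 genes, led by the importin gene Kpnb1, and membrane traffic 6 of 9, led by Arl6ip1 (3.67) and Rab1 (3.56). Cytoskeleton and adhesion had 5 of 8, from the tubulin gene Tuba1b (2.73) to Cfl1 (5.77), whose protein severs actin filaments, and Marcksl1 (5.78). The ubiquitin list had 3 of 8 genes: Ube2z (5.54), Usp1 (3.58) and Trim71. Zinc finger genes and solute carriers with transmembrane proteins, chosen by symbol, had 3 of 7 and 3 of 10. Of the list of p53 and apoptosis, 2 of 2 genes with a peak (Cdkn1a and Sgk1) had it in the 3′ UTR, and of hydrocephalus and neural genes 2 of 2 (Smarcc1 and Trim71).

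Most 3′ UTR peaks lay near the annotated end of the gene. Distance was counted in genomic bases from the peak to the end of the gene's span, over all its isoforms. For 294 peaks inside the span of their gene, the median was 816.5 bases (interquartile range 239 to 1860). Coding-sequence peaks had a median of 2387 bases (n = 207). A 3′ UTR lies after the coding sequence, so this order follows from the labels by which the peaks were chosen. The distances are therefore a description. Within 100 bases of the end lay 41 peaks, and within 1000 bases 165 of 294 (56.1%). In the last 10% of the gene lay 217 peaks (73.8%), and in the first 50% lay 10 (3.40%). The nearest were those of Tmem55b (9 bases), Gfpt1 (14 bases), and Dad1 and Safb (21 bases each), while the Ranbp1 peak ran past the annotated end by 4 bases. Neither enrichment nor density followed the distance (Spearman rho 0.02 and -0.04, n = 294).

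**Figure D3:**
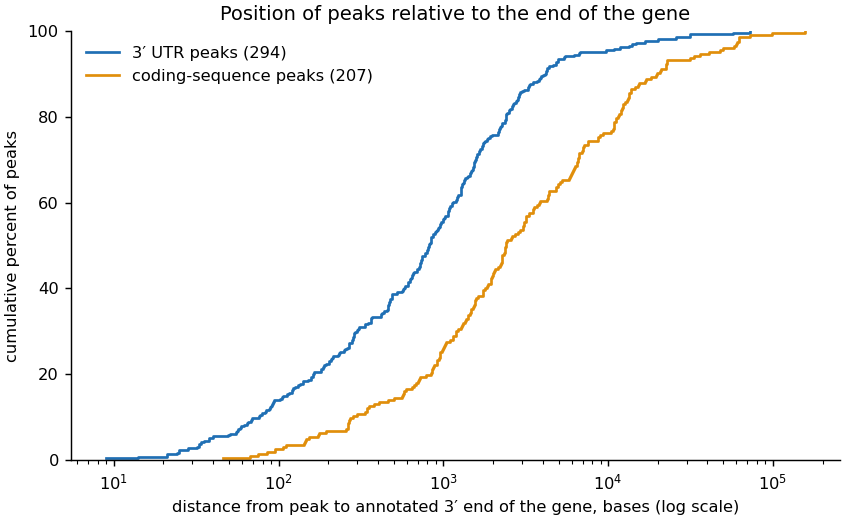
Cumulative percent of peaks by distance to the annotated 3′ end of their gene, in genomic bases on a log scale, for 294 peaks in 3′ UTRs (blue) and 207 in coding sequence (orange). The blue curve passes 56.1% at 1000 bases and lies to the left of the orange one, whose median is 2387 bases. This order follows from the labels, because a 3′ UTR lies after the coding sequence.

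A small number lay far from the annotated end. Over 5000 bases away were 19 peaks in 15 genes. The farthest were in Abcc5 (72508 bases), Usp15 (57653 bases), Pole4 (31441 and 31205 bases), Aebp2 (25835 bases) and Rbm25 (20049 and 19943 bases). Abcc5 encodes a membrane transporter, Usp15 a deubiquitinase, Pole4 a DNA polymerase subunit and Aebp2 a Polycomb cofactor. Their RPM ranged from 3.09 in Pole4 to 13.5 in Rbm25. The pair in Srsf11, 13926 and 13292 bases from the end, included the third highest log2 fold change of all 3′ UTR peaks. Introns and shorter isoforms enter these distances, and the gene table gives no isoform ends, so their part in the distances was not tested. The median log2 fold change was 4.45 in these 19 peaks and 3.84 in the 41 nearest the end.

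In some places a peak fell within more than 1 annotated gene. The spans of 2 or more genes covered 30 of the 300 peaks, 7 of them those on snoRNA genes. The other 23 included L3mbtl2 (with Chadl), Kdm1a (with Luzp1), Taf10 (with Ilk), Mcts2 (with H13), Sox2 (with Sox2ot) and both Hic2 peaks (with Tmem191c). Where the strand could be checked against the gene's annotated start, it matched in 241 of 241 peaks. The strand of the second gene was not compared with that of the peak, so these assignments are uncertain.

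Repeated peaks in 1 message were the exception. A single 3′ UTR peak was found in 223 genes, a pair in 23, 3 in 6 genes, 4 in 2 and 5 in 1 gene. The 32 genes with 2 or more held 77 peaks. Those with 3 or more were Fubp1 (5 peaks), Hnrnpa2b1 and Hnrpdl (4 each), and Syncrip, Cpsf6, Fubp3, Fem1b, Kpnb1 and Hspa8 (3 each). Of these 9, the first 6 encode RNA-binding proteins, Fem1b an adaptor of ubiquitin ligases, Kpnb1 an importin and Hspa8 the chaperone whose peaks lay on snoRNA genes.

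Neighbouring peaks were 13 to 4303 bases apart, with a median gap of 355 bases over 45 pairs. The closest were in Hic2 and Hspa8 (13 bases each), Marchf5 (15 bases, listed under a calendar date) and Hsp90aa1 (17 bases). The widest gaps were in Gna13 (4303 bases), Cpsf6 (4062 bases) and Fem1b (3439 bases). Below 50 bases were 9 pairs and above 1000 bases were 12.

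**Figure D4:**
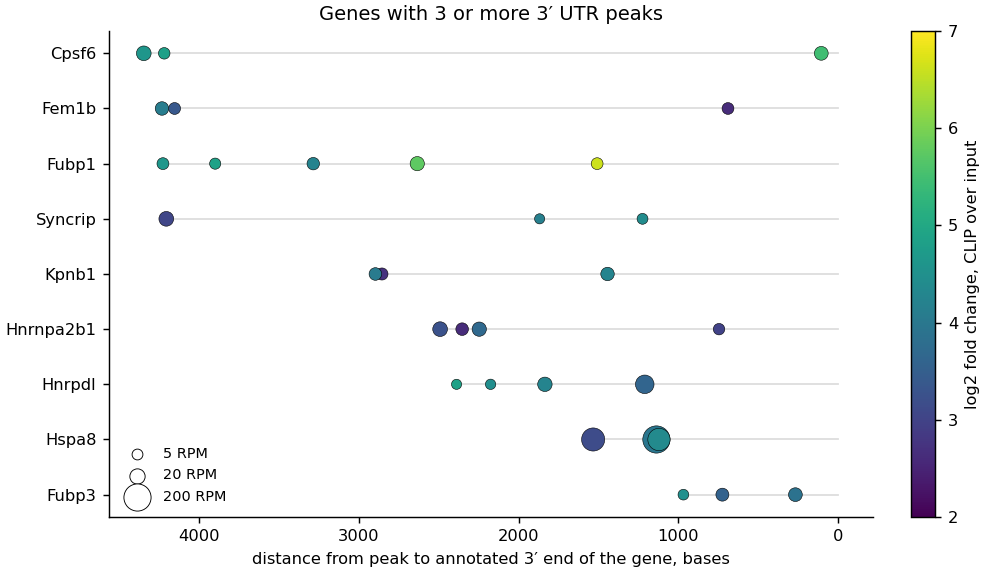
Position of each peak in the 9 genes with 3 or more 3′ UTR peaks, as distance in bases to the annotated 3′ end of the gene (right edge at 0), with point area growing with RPM and colour giving the log2 fold change. Fubp1 has its highest value, 6.62, in the peak nearest the end, and the largest points belong to Hspa8.

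Whether peaks of 1 message were alike in enrichment was tested on their reads with Fisher's exact test (two-sided), with Benjamini-Hochberg adjustment over the whole table's 219 neighbouring pairs. It compares pooled libraries, covers counting error only, and takes reads as independent molecules. Of the 45 pairs within 3′ UTRs, 18 differed at an adjusted p under 0.05 (40.0%), and 16 of the 42 off snoRNA genes did so. Over all 219 pairs 53.0% did, so the share in 3′ UTRs was not above that background. The downstream peak was higher in 8 pairs and lower in 10 (in all pairs, 26.0% and 26.9% were called in these directions).

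The largest difference was in Thoc3, a subunit of the complex that exports messenger RNA. Its upstream peak had 150 CLIP and 117 input reads, a log2 fold change of 3.26, and the peak 345 bases downstream had 63 and 8 reads, or 5.88 (adjusted p = 7.74e-07, exact test). The next was in Rbm25, where peaks 47 bases apart had 148 CLIP reads over 12 input reads and 73 over 29. Their log2 fold changes were 6.53 and 4.23 (adjusted p = 3.35e-05, exact test). Whether both peaks of a gene lie on the same isoform was not tested.

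In Fubp1, whose protein binds single-stranded nucleic acid, the values from the start of the 3′ UTR were 4.66, 4.88, 4.23, 5.75 and 6.62. The step from the third to the fourth peak passed the test (98 over 39 against 166 over 23 reads, adjusted p = 0.000901, exact test), and the other 3 steps did not. In Hnrnpa2b1, a nuclear ribonucleoprotein of splicing, all 3 steps passed, from 3.25 to 2.62, then 3.69, then 2.99 (largest adjusted p = 0.0466, exact test). Hnrpdl went from 4.87 to 4.46, 4.26 and 3.62 while its RPM went from 3.91 to 4.27, 15.9 and 43.7, and the last step passed (adjusted p = 0.0135, exact test).

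In Kpnb1 the middle of 3 peaks was the lowest, with 4.06, 2.71 and 4.26, and both steps passed the exact test (larger adjusted p = 0.000192). Syncrip, another ribonucleoprotein, went from 3.05 to 4.16 over 2326 bases (adjusted p = 0.0249, exact test) and then to 4.41. In Cpsf6 (4.63, 4.82 and 5.47), Fubp3 (4.49, 3.54 and 3.89) and Fem1b (4.09, 3.36 and 2.62) no step passed. Among genes with a pair, the other calls were Celf1, Hsp90aa1, Tsc22d1, Sgk1, Mitf and Pafah1b1. Celf1, which promotes decay of messages, fell from 3.94 in the upstream peak to 2.45 in the downstream one (adjusted p = 5.31e-08, exact test). Hsp90aa1 rose from 2.95 to 4.03 over a gap of 17 bases (adjusted p = 1.75e-07, exact test).

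In Tsc22d1, Sgk1, Mitf and Pafah1b1 the downstream peak was lower, by -1.05 in Sgk1 to -1.60 in Mitf on the log2 scale. The message of Trim71 itself held a pair of 3.06 and 2.96 that did not differ beyond counting error (adjusted p = 0.828, exact test). Those peaks lay 1334 and 185 bases from the annotated end.

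Peaks in the 3′ UTR were also set against coding-sequence peaks of the same message. Of the 255 genes, 226 had peaks in the 3′ UTR alone and 29 had another location as well, in 19 genes the coding sequence. Reads were summed over the peaks of each location, and the same exact test was adjusted over the 19 genes. It called 10 of 19 (52.6%), the 3′ UTR higher in 4 (21.1%) and lower in 6 (31.6%), and the median difference was -0.09. The comparison was chosen after the table had been seen.

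In Rps24, a ribosomal protein gene, the 3′ UTR had 190 CLIP over 36 input reads and the coding sequence 147 over 186, with log2 fold changes of 5.30 and 2.56 (adjusted p = 2.9e-21, exact test). Hsp90ab1 had 484 over 78 reads in the 3′ UTR against 360 over 244, or 5.53 and 3.46 (adjusted p = 1.34e-23, exact test). Gpx1, a selenium-dependent peroxidase, and Npm1, the nucleolar chaperone nucleophosmin, were the others higher in the 3′ UTR, by 1.54 and 1.31.

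The opposite order was found in Smarcc1, Tuba1b, Rps25, Rpl13a, Ldha and Hsp90aa1. Smarcc1 had 112 CLIP over 146 input reads in the 3′ UTR and 87 over 42 in the coding sequence, or 2.52 and 3.95 (adjusted p = 3.41e-05, exact test). Differences (3′ UTR minus coding sequence) were -1.41 for Tuba1b, -1.34 for Rps25 and -0.96 for Rpl13a, of which 1 coding-sequence peak lay on a snoRNA gene. Without that peak the difference in Rpl13a was -1.31. They were -0.67 for Ldha, lactate dehydrogenase, and -0.66 for Hsp90aa1. By summed reads the 2 Hsp90 genes thus lay on opposite sides, and the difference between them was not tested. Single peaks of Hsp90aa1 did not all follow its sum. Those in the 3′ UTR had 2.95 (717 CLIP reads) and 4.03 (199 CLIP reads), and those in the coding sequence 4.29 and 3.49.

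**Figure D5:**
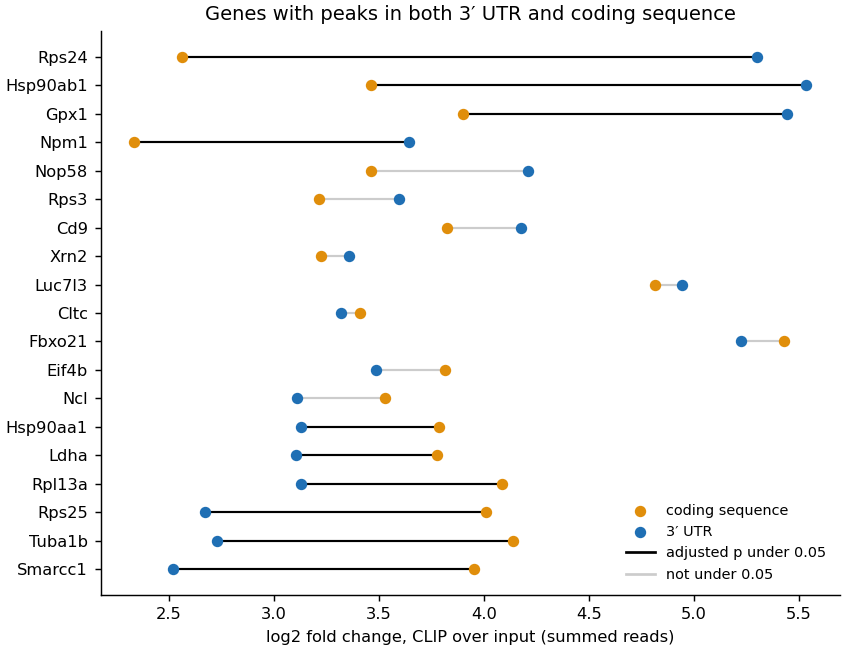
Log2 fold change of CLIP over input from summed reads in the 3′ UTR (blue) and coding sequence (orange) of the 19 genes with peaks in both, with black lines where Fisher's exact test gave an adjusted p under 0.05. Rps24, Hsp90ab1, Gpx1 and Npm1 have black lines with the 3′ UTR higher, and 6 genes from Smarcc1 to Hsp90aa1 have the reverse.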

How the data were processed

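The study measured RNA fragments bound by FLAG-Trim71 (R783H) in mouse embryonic stem cells, with 2 CLIP and 2 input libraries. A single peak table was analysed. Per the submitters' processing notes, CASAVA 1.4, cutadapt, HISAT2 2.1.0, SAMtools and the build mm10 were used. The peak caller, its thresholds and the pooling of replicates are not given in the sources used here. Per the file headers, the authors gave an RPM value for each peak. The deposited fold change has no stated base and was read as log2. Multiplied by 11, the RPM values were whole CLIP reads. With a depth ratio of 7.47, the log2 reading gave whole input reads (tolerance 0.1 reads) in 100% of the 720 peaks whose rounding allowed the check. Totals of 11000000 CLIP and 82160000 input reads followed.

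Peaks with the location 3′ UTR alone were kept (Python 3.11.15, pandas 2.3.3, scipy 1.17.1), and combined labels were left out. Deposited starts were read as counting from 0, since 5 of 6 peaks on mature microRNAs of the plus strand began 1 base before them, so 1 was added to each printed start. Gene spans and snoRNA genes came from a RefSeq gene table of GRCm38.p6, the assembly called mm10. Of 255 genes, 236 matched a current symbol, 15 an older one and 4 none. Distances need a gene's strand, which was taken from the peak.

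The members, the gene lists and the grouping by role were chosen with earlier results of these data known. Named were the 15 highest and 10 lowest peaks by log2 fold change, the 15 densest, the widest, narrowest and farthest 5, genes with 3 or more peaks, pairs that differed, and genes on the lists with a 3′ UTR peak. Members outside that rule were chosen after their values were seen. Reads of peaks in 1 gene were compared with Fisher's exact test. Medians and counts over peaks have no test, because peaks are not replicates. The scripts were tested on simulated data. Alternatives were a stricter list, merged intervals, combined labels, added reads, a chi-square test, other distance rules and the omission of peaks on snoRNA genes.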

Additional observations from a re-analysis of the deposited data

How the results depend on the processing

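No paired analysis was possible because each peak has a single value, with none by library. For the same reason, leaving out a library and the planned fits per library were not run, and sequence features were not analysed because no genome was used. Of 29 alternatives, 24 kept their value within the limits set. Keeping the better 50% of the whole list by log2 fold change left 131 of the 300 peaks, 115 of the 255 genes and 11 of the 32 genes with 2 or more peaks, with a median of 6.64 RPM; fewer peaks follow from its construction. Without peaks on snoRNA genes, a setting chosen after seeing the data, the 3′ UTR share of RPM was 31.6% in place of 17.8%. The number of pairs that differed was 17 with a chi-square test and 18 with 1 read added to each count. Merging intervals within 50 bases left 291 peaks and 26 genes with repeats. Counting error limits single peaks: the median half-width of the interval was 0.57 on the log2 scale, and 5 peaks rested on 5 input reads.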

Other observations

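Several peaks carry names that the gene table places differently. The peaks listed under 5-Mar and 8-Mar, symbols turned into calendar dates, lie in the spans of Marchf5 and Marchf8, which encode membrane-bound ubiquitin ligases. Their log2 fold changes were 3.59 and 3.86 in Marchf5 and 5.93 in Marchf8. The 3′ UTR peak listed under the microRNA name Mir1198 (5.36 RPM, log2 fold change 3.61) lies in the span of Psma6, a proteasome subunit gene. That of Tgoln2 (6.32) lies in the span of Tgoln1. These names were examined after the peaks had been seen.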
